A study of Mus musculus with 6 samples.

Results

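The ileum, the last segment of the small intestine, recovers most of the bile acids that the liver secretes. The 8 genes described here encode the steps of that recovery and its control. They include the uptake transporter Slc10a2, the cytosolic carrier Fabp6 and both subunits of the exporter (Slc51a and Slc51b). The others are the bile acid receptor FXR (Nr1h4), the repressor SHP (Nr0b2), the hormone Fgf15 and the membrane receptor TGR5 (Gpbar1). All 8 genes were taken by symbol from a deposited table of 33017 genes, in which each has a row. They were chosen by their levels in 1 library, control 3, which were seen to differ from those in the other 5, so the comparison of control 3 with the others is given as a description with no test.

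Messenger RNA was sequenced from frozen small intestine of mice in 2 groups, labelled model and control, with 3 libraries each (model 1 to 3 and control 1 to 3). The series title names simulated microgravity, radiation and a bioactive compound, and the design text speaks of the joint effect of both factors, but no library is labelled as given the compound and nothing says which exposure the model animals had. The labels give no strain, sex, age or dose and do not name the segment of small intestine taken. Nor do they state that each library is a separate animal, so the p-values reflect library-to-library spread that could be technical.

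In the ileal enterocyte, SLC10A2 in the brush border takes up conjugated bile acids together with sodium, FABP6 binds them in the cytosol, and the SLC51A-SLC51B heterodimer releases them across the basolateral membrane to the portal blood. Bile acids bind FXR, which pairs with RXR on DNA and, in the mouse ileum, induces Fabp6, the Slc51 genes, Nr0b2 and Fgf15. FGF15 travels to the liver and lowers bile acid synthesis, and SHP is a repressor without a DNA-binding domain that dampens other nuclear receptors, including those that drive Slc10a2 in the mouse.

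The DNA just upstream of the 3 genes with the widest range between libraries is shown first, because Fabp6 and Slc10a2 were high in control 3 where Nr0b2 was at 0. Each sequence is the 250 bases before the annotated start from RefSeq, build GRCm38.p6, which is not the build of the read counts. Fabp6 lies on the minus strand at chr11:43601563-43601812, Slc10a2 on the minus strand at chr8:5105288-5105537, and Nr0b2 on the plus strand at chr4:133553126-133553375. Capitals mark matches to an inverted repeat, the arrangement of half-sites that FXR with RXR binds (IR-1, AGGTCANTGACCT), or to the palindrome bound by the hepatocyte nuclear factor HNF1 (GTTAATNATTAAC), each with at most 3 mismatches on either strand.
Fabp6: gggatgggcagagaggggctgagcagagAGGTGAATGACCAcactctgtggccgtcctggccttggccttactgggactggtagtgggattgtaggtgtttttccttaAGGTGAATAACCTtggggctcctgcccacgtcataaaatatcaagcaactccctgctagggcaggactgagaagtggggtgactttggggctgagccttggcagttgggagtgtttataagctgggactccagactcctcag
Slc10a2: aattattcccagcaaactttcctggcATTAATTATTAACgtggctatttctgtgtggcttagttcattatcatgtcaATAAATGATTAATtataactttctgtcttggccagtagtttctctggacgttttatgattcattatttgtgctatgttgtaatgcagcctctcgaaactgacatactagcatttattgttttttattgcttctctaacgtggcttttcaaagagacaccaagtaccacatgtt
Nr0b2: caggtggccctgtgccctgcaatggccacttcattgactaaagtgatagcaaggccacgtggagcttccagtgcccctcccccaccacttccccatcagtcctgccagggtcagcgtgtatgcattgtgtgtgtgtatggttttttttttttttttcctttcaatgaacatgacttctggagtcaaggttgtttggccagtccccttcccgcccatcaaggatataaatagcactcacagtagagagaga

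The Fabp6 sequence held 2 IR-1 matches, each with 2 mismatches, at positions -222 to -210 and -142 to -130 from the start. Of 32851 promoter windows of the same length in the RefSeq table, 0.959% held an IR-1 match with at most 2 mismatches and 9.63% one with at most 3. Matches with 3 mismatches stood upstream of Slc51a (-79 to -67) and Slc51b (-187 to -175), and no such match was found in the windows of Slc10a2, Nr1h4, Nr0b2 and Gpbar1. Slc10a2 held an HNF1 match with 1 mismatch at -224 to -212 and one with 3 mismatches at -173 to -161, and Nr1h4 held one with 2 mismatches at -40 to -28. At most 2 mismatches to the HNF1 palindrome were found in 1.24% of all windows, and at most 3 in 7.58%. A GATA motif (AGATAA, either strand, no mismatch) was found upstream of Nr1h4 alone among the 7 genes with a window, and in 9.99% of all windows. A match describes letters and is not evidence of binding.

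Levels are given as CPM, counts scaled to a common library size with TMM, an edgeR method that corrects for differences in RNA composition. Library totals lay between 35007515 and 45285564 counts. A count of 0 allows a level of up to 3 counts, which was 0.0626 to 0.104 CPM across the libraries, and intervals and this floor cover counting error only. A gene entered the test if it had enough counts in at least 3 libraries by edgeR's filter (15904 genes). Of the 8 genes, 6 passed it. Fabp6 did not, because only 1 library held more than 10 of its counts, and Fgf15 did not, because 5 libraries were at 0.

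The uptake transporter and the cytosolic carrier were close to absent in 5 libraries and abundant in 1. Fabp6 had 4, 2 and 10 counts in model 1, 2 and 3 and 6, 2 and 49081 counts in control 1, 2 and 3. Scaled, this was 0.138, 0.0454 and 0.285 CPM in the model libraries and 0.125, 0.0534 and 1166 CPM in the control libraries. Control 3 was thus 4091 times the highest of the other 5 libraries, model 3 (95% binomial interval of the ratio 2224 to 8531). The model libraries and control 1 and 2 had overlapping counting intervals for Fabp6. Slc10a2 measured 4.6, 1.11 and 3.76 CPM in model 1, 2 and 3 and 1.13, 2.73 and 648 CPM in control 1, 2 and 3. Control 3 held 27284 Slc10a2 counts, 141 times the scaled level of model 1 (interval 119 to 168). The other 5 libraries held 49 to 133 Slc10a2 counts, and among them model 1 and model 3 were high and model 2 and control 1 low.

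Both exporter subunits were present in every library and higher in control 3, by a far smaller ratio. Slc51a measured 218, 96.4 and 103 CPM in model 1, 2 and 3 and 85.5, 140 and 363 CPM in control 1, 2 and 3, so that control 3 was 1.67 times the next library, model 1, and 3.52 times the median of the other 5. Without model 1 the ratio to the next library was 2.58. Slc51b measured 15.3, 15.6 and 16.8 CPM in the model libraries and 13, 12.7 and 37.0 CPM in the control libraries, with control 3 at 2.21 times the highest of the others. The coefficient of variation over the 5 other libraries was 41.9% for Slc51a and 11.9% for Slc51b. Relative to exon length, the level of Slc51a was 3.15, 1.37 and 1.36 times that of Slc51b in model 1, 2 and 3 and 1.46, 2.44 and 2.17 times in control 1, 2 and 3. The balance of the subunits in control 3 lay inside the range of the other libraries.

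The receptor FXR was present in every library, at 103, 98.5 and 93.5 CPM of Nr1h4 in model 1, 2 and 3 and 71.9, 101 and 307 CPM in control 1, 2 and 3. Control 3 was 2.99 times the highest of the others, which varied little among themselves (coefficient of variation 13.5%). Its target Nr0b2 went the other way. Nr0b2 measured 25.2, 7.05 and 9.60 CPM in model 1, 2 and 3 (727, 311 and 337 counts) and 3.09 and 7.14 CPM in control 1 and 2 (148 and 267 counts), and was at 0 counts in control 3. Against the floor of 3 counts in control 3, this library was at least 43.3-fold lower than the lowest of the others, control 1. Among those 5 libraries Nr0b2 spanned 8.15-fold, the widest span of the 7 genes detected there, with model 1 the highest.

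The hormone and the membrane receptor were hardly detected. Fgf15 had 0 counts in model 1, 2 and 3 and in control 1 and 2, and 6 counts in control 3 (0.142 CPM, 95% Poisson interval 0.0523 to 0.310). The value of control 3 was 1.37 times the highest floor of 3 counts among the other libraries (0.104 CPM). Its interval reached below that floor, so a difference is not established, and at this depth Fgf15 was near the limit of detection in control 3 as well. Gpbar1 measured 0.588, 0.295 and 0.228 CPM in model 1, 2 and 3 and 0.355, 0.641 and 0.190 CPM in control 1, 2 and 3, from 8 to 24 counts. Control 3 was the lowest library for Gpbar1, but its counting interval (0.0820 to 0.374 CPM) overlapped those of model 1 to 3 and of control 1.

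**Figure D1:**
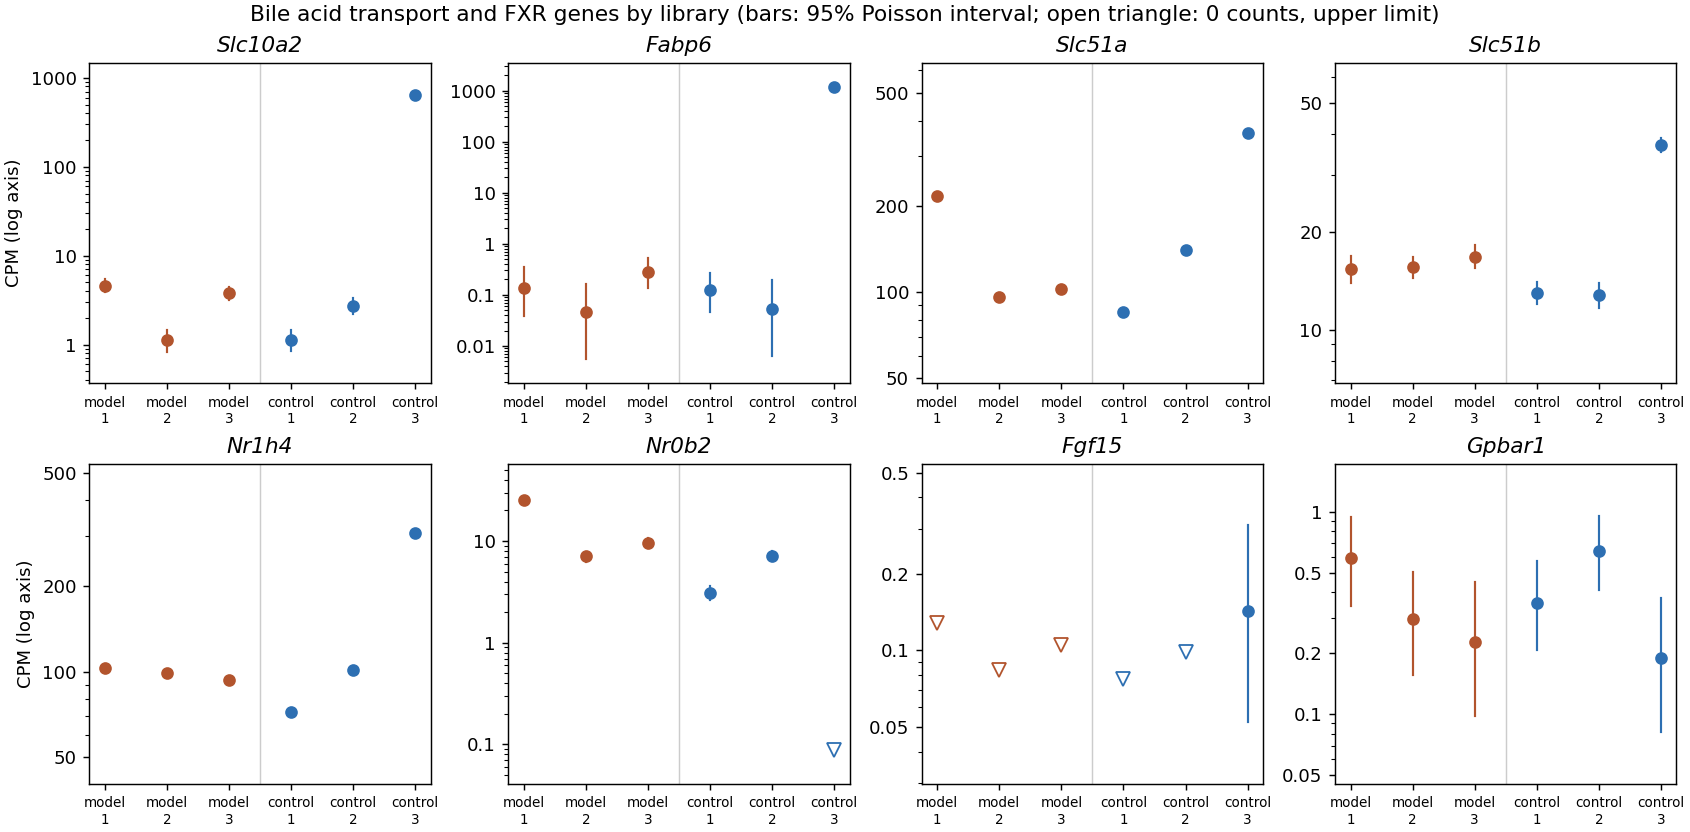
CPM of each of the 8 genes (log axis, own scale per panel) in model 1 to 3 (orange) and control 1 to 3 (blue), with 95% Poisson intervals as bars and open triangles for the upper limit of libraries at 0 counts. Control 3 stands above the other 5 libraries for Slc10a2, Fabp6, Slc51a, Slc51b and Nr1h4, holds the 6 Fgf15 counts, and is at 0 for Nr0b2.

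Of the 7 genes with at least 10 counts in any library, 5 were above the highest of the other 5 libraries in control 3, beside 28.4% of the 17899 genes with that many counts, and 2 (Nr0b2 and Gpbar1) were below the lowest, beside 24.3%. Of the 7, 4 (Fabp6, Slc10a2, Nr1h4 and Slc51b) were at 2-fold or more above the highest of the other 5 libraries in control 3, and 1 (Nr0b2) was at 2-fold or more below the lowest. Over the 17899 genes, 4.53% were as far above and 4.09% as far below, and the genes were chosen for this difference, so nothing is read from the contrast. At a fold of 4 the count was 2 of 7, Fabp6 and Slc10a2, beside 1.32% of the 17899 genes, and Nr0b2 was also that far below the lowest, beside 1.58%.

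The order of the levels per kilobase of exon differed between control 3 and the rest. In control 3 Fabp6 led with 2433 CPM per kilobase, followed by Slc10a2 with 156, Nr1h4 with 133, Slc51a with 113 and Slc51b with 52.3. Over the other 5 libraries the medians were 42.8 CPM per kilobase for Nr1h4, 32.3 for Slc51a, 21.6 for Slc51b, 6.30 for Nr0b2, 0.657 for Slc10a2, 0.330 for Gpbar1 and 0.261 for Fabp6. The ranges of Nr1h4 (31.2 to 44.6) and Slc51a (26.7 to 68.0) overlapped, and so did those of Slc51b (18.0 to 23.6) and Nr0b2 (2.73 to 22.2) and those of Slc10a2 (0.268 to 1.11), Gpbar1 (0.212 to 0.597) and Fabp6 (0.0947 to 0.595). In these 5 libraries the exporter subunits were thus both above the uptake transporter by more than their ranges. Exon lengths came from GENCODE M21 on GRCm38.

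The study's own question was how model and control intestine differ. None of the 6 tested genes passed edgeR's quasi-likelihood test between model and control, with or without control 3, and the test called 0 of 15904 genes (0% higher and 0% lower; 765 genes had an unadjusted p under 0.05). Slc10a2 averaged 3.16 ± 1.82 CPM in model and 217 ± 373 CPM in control libraries (SD, n = 3 each), a log2 fold change of -6.11 (SE 2.44, edgeR adjusted p = 0.851). Nr1h4 averaged 98.2 ± 4.58 CPM in model and 160.02 ± 128 CPM in control libraries (log2 fold change -0.70, SE 0.51, edgeR adjusted p = 0.851). The log2 fold change was -0.50 (SE 0.56) for Slc51a, -0.40 (SE 0.43) for Slc51b and -0.10 (SE 0.71) for Gpbar1. Nr0b2 averaged 13.9 ± 9.80 CPM in model and 3.41 ± 3.58 CPM in control libraries, a log2 fold change of 2.03 (SE 1.34, edgeR adjusted p = 0.851). For each of the 6 genes the groups overlapped, beside 4.73% of all genes tested that were higher and 6.33% that were lower in model libraries without overlap. Control 3, whose values chose the genes, is 1 of the 3 control libraries.

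Of these differences 4 had the opposite sign without control 3. The log2 fold change was 0.73 (SE 0.69) for Slc10a2, 0.32 (SE 0.43) for Slc51a, 0.32 (SE 0.22) for Slc51b and 0.20 (SE 0.23) for Nr1h4, each with an edgeR adjusted p of 0.9999 over 16145 genes, of which 377 had an unadjusted p under 0.05. Nr0b2 had a log2 fold change of 1.47 (SE 0.65, unadjusted p = 0.0572, edgeR adjusted p = 0.9999), with model 2 just below control 2. Slc51b was the 1 gene of the 6 tested whose groups did not overlap without control 3, at 15.9 ± 0.758 CPM in model libraries (n = 3) and 12.9 ± 0.160 CPM in control 1 and 2 (SD, n = 2), beside 7.38% of all genes tested that were higher and 9.18% that were lower without overlap. In the fit with no filter on low counts, Fabp6 had a log2 fold change of -11.3 (SE 4.87, edgeR adjusted p = 0.806) with all libraries and 0.76 (edgeR adjusted p = 0.999) without control 3. By DESeq2, 18 genes were higher (0.113%) and 7 lower (0.0440%) in model libraries, and without control 3 the shares were 0.0991% and 0.0310%, with none of the 6 genes among them in either fit. With all 6 libraries DESeq2 gave Slc10a2 no adjusted p, and without control 3 its DESeq2 adjusted p was 0.9999.

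**Figure D2:**
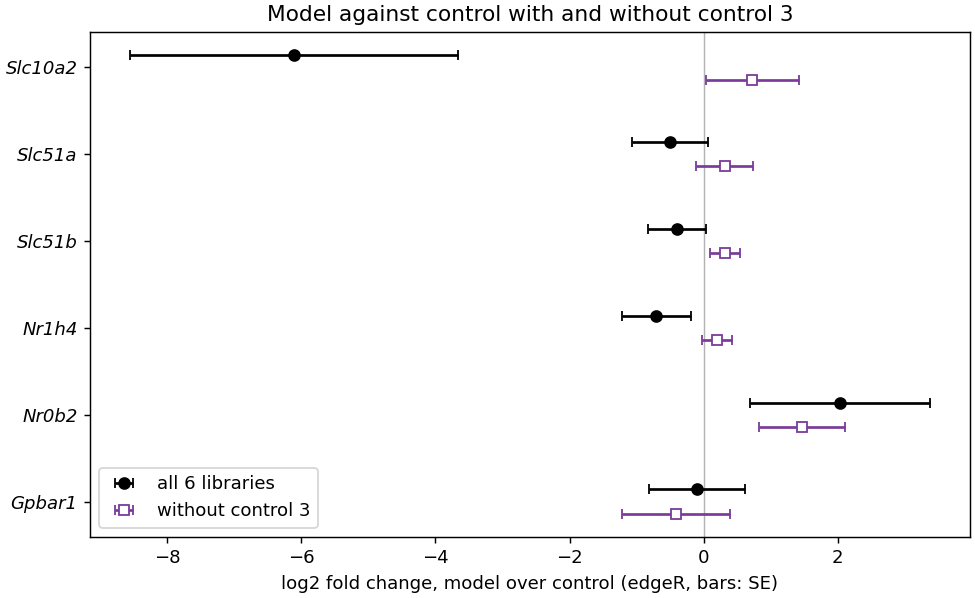
Log2 fold change of model over control for the 6 tested genes, with bars of 1 SE from edgeR, from all 6 libraries (filled circles) and without control 3 (open squares). Slc10a2, Slc51a, Slc51b and Nr1h4 lie left of 0 with control 3 and right of 0 without it, and Nr0b2 lies right of 0 in both.

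Segment genes outside the bile acid pathway also differed in control 3, in lists chosen with earlier results of these data known. Of 11 tested ileal enterocyte genes, 7 were at 2-fold or more above the highest other library in control 3, and the list's median log2 difference from the median of the other 5 was 3.87, beside 0.03 over all genes tested. Of all genes tested, 3.02% were as far above the highest and 4.28% as far below the lowest. Because of how the lists were chosen, nothing is read from the contrast with these shares. The peptidase gene Naaladl1 measured 2735 CPM in control 3 and 53.6 to 190 CPM in the others, whereas the lectin gene Clec2h measured 1449 CPM in control 3 and 913 to 1815 CPM in the others. Of 12 duodenal and jejunal genes, 11 were at 2-fold or more below the lowest other library in control 3 (median log2 difference -5.79). Rbp2, a retinol carrier, measured 67.8 CPM in control 3 and 1503 to 3828 CPM in the others. Named after their values were seen, Fabp1, the fatty acid carrier of the proximal intestine, measured 0.926 CPM in control 3 and 822 to 1520 CPM elsewhere, and Gata4, a transcription factor that represses Slc10a2 in the mouse jejunum, 1.90 CPM in control 3 and 214 to 255 CPM elsewhere. The library labelled control 3 held most of the listed ileal genes above, and nearly all of the listed proximal genes below, the other 5 libraries. The part of this difference in the bile acid genes was not tested. The segment taken is not labelled, and in 1 library segment and any other property of the sample cannot be told apart. In bulk tissue, fewer cells of a type and less RNA per cell cannot be told apart either.

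Control 1 was the next library for some ileal genes and not for bile acid genes. The phosphate transporter gene Slc34a2 measured 589 CPM in control 3, 54.4 CPM in control 1 and 0.826 to 2.35 CPM in the other 4 libraries. Cubn, which encodes the vitamin B12 receptor cubilin, measured 424 CPM in control 3, 70.4 CPM in control 1 and 4.01 to 32.9 CPM in the others. Cubn was chosen after its values were seen. In control 1 Slc51a and Nr1h4 were the lowest of all 6 libraries, and Fabp6 had 6 counts.

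Other tissue markers were set beside these values. The summed level of 8 epithelial and enterocyte markers was 16326 CPM in control 3 and 14088 to 18931 CPM in the others. More than any other gene of the list, the brush border peptidase gene Anpep made up the sum of control 3, at 8570 CPM there and 1973 to 3461 CPM elsewhere. Without Anpep, left out after the values were seen, control 3 summed to 7756 CPM, below the 11614 to 16958 CPM of the others. The brush border phosphatase gene Alpi was at 276 CPM in control 3 and 2981 to 7417 CPM elsewhere. Sis (1255 CPM, against 1785 to 3744 CPM) and Vil1 (1810 CPM, against 1991 to 2389 CPM) were also below the others in control 3. Epcam (1622 CPM), Cdh1 (896 CPM) and Krt20 (1896 CPM) of control 3 lay inside the range of the others. Fabp2 is listed at 0 in all 6 libraries. For any gene listed at 0 in every library, absence of its RNA and reads left uncounted cannot be told apart here. The 12 B cell and Peyer's patch markers summed to 356 CPM in control 3, and 10 of the 11 tested were highest there, beside 27.5% of all genes tested. The B cell sum of model 3 was 323 CPM, and the other 4 libraries lay at 17.4 to 49.6 CPM, with Ms4a1 listed at 0 throughout. The sum of model 3 included 101 CPM of Gp2, a gene of Peyer's patch M cells that pancreatic acinar cells also express, which was at 1.38 CPM in control 3 and 0.0802 to 1.07 CPM in the other 4. Without Gp2, left out after the values were seen, the sum was 354 CPM in control 3, against 222 CPM for model 3 and 16.3 to 49.3 CPM for the other 4. The part of these cells in the bile acid genes was not tested. The 8 exocrine pancreas markers reached a sum of 5943 CPM in model 3, where the other libraries had at most 26.9 CPM, and the 8 liver markers summed to 5.25 CPM in control 3 and 7.75 to 21.2 CPM in the others. Smooth muscle markers summed to 1946 CPM in control 3 and 855 to 1728 CPM in the others.

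**Figure D3:**
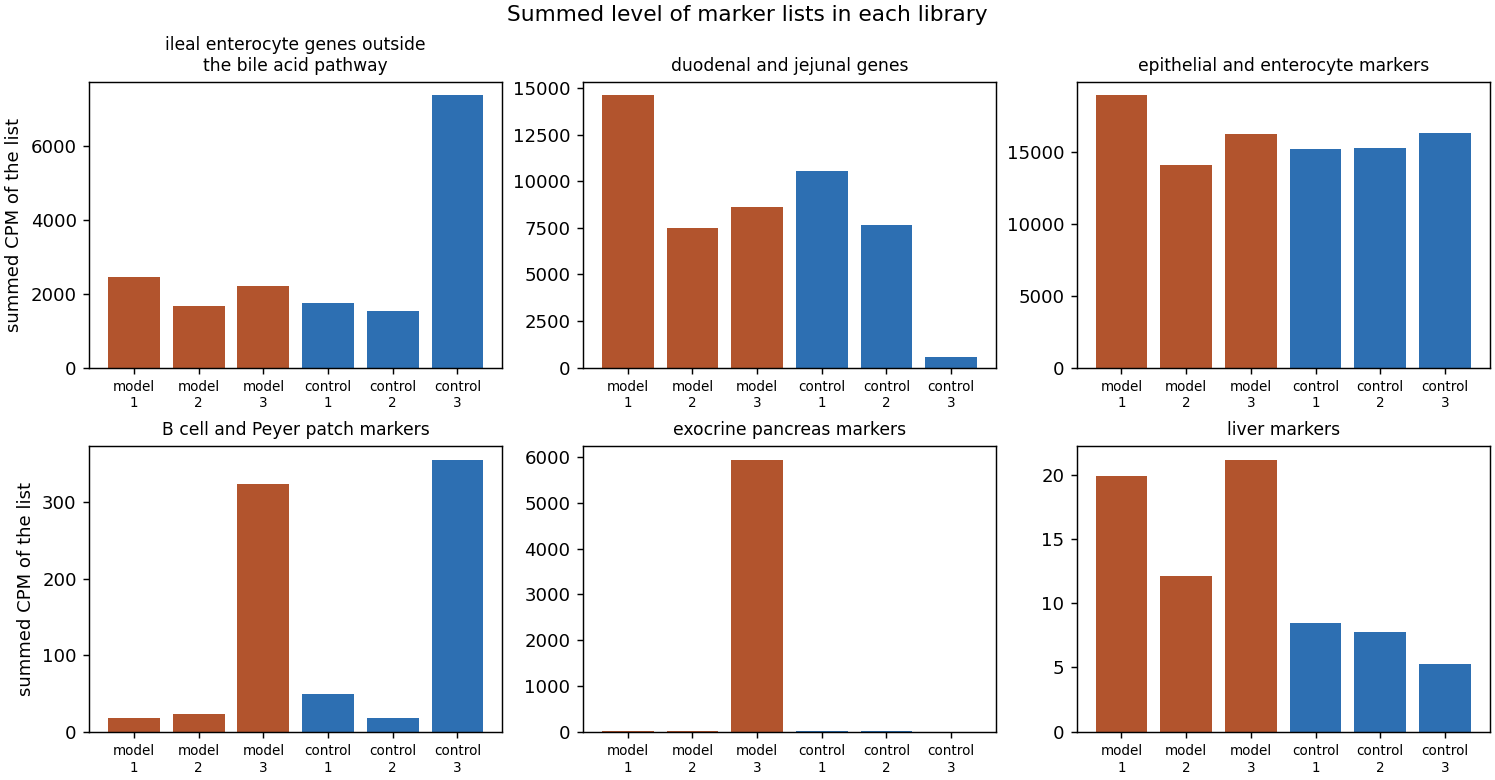
Summed CPM (linear axis from 0) of 6 marker lists in model 1 to 3 (orange) and control 1 to 3 (blue). Control 3 is the highest library for ileal genes (7373 CPM) and the lowest for duodenal and jejunal genes (565 CPM), while its epithelial sum lies inside the range of the others with Anpep and below it without Anpep (7756 CPM against 11614 to 16958 CPM). Of the 7 tested epithelial genes, 3 (Alpi, Sis and Vil1) were below the lowest other library in control 3 and 1 (Anpep) above the highest.

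The wider bile acid pathway was described from lists of other genes, none of whose members passed the test between model and control. Of 6 tested other transporters of bile acids and organic anions, 3 had higher and 3 lower values in model libraries, with a median log2 fold change of -0.10 beside -0.02 over all genes. Abcc3, a basolateral exporter, measured 214, 315 and 165 CPM in model 1, 2 and 3 and 227, 343 and 117 CPM in control 1, 2 and 3. Abcg2, an apical efflux pump, was highest in control 3 (303 CPM, against 146 to 246 CPM in the others). Abcc2 has no row under that symbol in the deposited table and was not analysed here.

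FXR's partners and the regional transcription factors showed no rise in control 3 matching that of Nr1h4. None of the 15 was above the highest other library there, and 9 were below the lowest, beside 26.8% of all genes tested, with a median log2 difference of -0.47. Hnf4a measured 834 CPM in control 3 and 700 to 1043 CPM in the others, and the vitamin D receptor Vdr, which also binds a secondary bile acid, 356 CPM in control 3 and 732 to 1397 CPM in the others. Rxra, the partner of FXR, named after its values were seen, measured 182 CPM in control 3 and 231 to 304 CPM in the others. Between model and control, 13 of the 15 genes had higher values in model libraries (median log2 fold change 0.35). Of the 15904 genes tested, 7663 had higher values in model libraries, with a median of -0.02. Without control 3 the median was 0.23 for the 15 genes, beside 0.02 over all genes tested.

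The genes that serve FGF15 release and reception, 3 of 3, were highest in control 3, beside 27.5% of all genes tested. Malrd1, which promotes FGF15 release in the mouse, measured 201, 115 and 213 CPM in model 1, 2 and 3 and 139, 146 and 366 CPM in control 1, 2 and 3. Fgfr4, the FGF15 receptor of the liver, measured 5.44 CPM in control 3 and 2.0 to 4.16 CPM in the others. Control 3 was 1.31 times the next library, model 3. The counting intervals of control 3 (4.76 to 6.19 CPM) and model 3 (3.51 to 4.89 CPM) overlapped for Fgfr4. Of 15 bile acid synthesis and conjugation genes 11 were tested, with 8 higher and 3 lower in model libraries and a median log2 fold change of 0.19. Beside them, 7663 of all 15904 genes tested were higher, with a median of -0.02. Cyp27a1, the sterol 27-hydroxylase, measured 188, 52.8 and 165 CPM in model 1, 2 and 3 and 45.4, 48.1 and 27.8 CPM in control 1, 2 and 3. The groups did not overlap for Cyp27a1 (log2 fold change 1.74, SE 0.47, edgeR adjusted p = 0.851), and 4.73% of all genes tested were higher without overlap. The peroxisomal enzyme gene Hsd17b4 measured 95.8 CPM in control 3 and 266 to 500.01 CPM in the others. Cyp7a1, the first enzyme of the classical liver pathway, is listed at 0 in all libraries.

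Genes reported elsewhere as targets of FXR in the intestine gave no single pattern. Of the 4 tested, 2 were at 2-fold or more above the highest other library in control 3, beside 3.02% of all genes tested. In control 3, 1 was at 2-fold or more below the lowest, beside 4.28%. The sphingomyelinase gene Smpd3 measured 98.4, 177 and 105 CPM in model 1, 2 and 3 and 184, 176 and 137 CPM in control 1, 2 and 3. The cytokine gene Il18 was lowest in control 3, at 22.9 CPM against 67.8 to 133 CPM in the others. Nos2, the inducible nitric oxide synthase, named after its values were seen, measured 445 CPM in control 3 and 1.45 to 17.1 CPM in the others. Car12, also named after its values were seen, measured 31.2 CPM in control 3 and 4.50 to 15.4 CPM in the others.

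The tested genes whose profile over the 6 libraries was nearest to that of Fabp6 were found by the Euclidean distance between log2 CPM values centred on each gene's mean. The nearest was Slc5a8, a sodium-coupled monocarboxylate transporter (distance 3.04), with 0.208, 0.159 and 0.313 CPM in model 1, 2 and 3 and 0.772, 0.294 and 383 CPM in control 1, 2 and 3. Tmigd1, an immunoglobulin-domain membrane protein, followed at a distance of 3.88, with 689 CPM in control 3 and at most 5.53 CPM elsewhere. Slc10a2 lay at 4.59, Nr1h4 at 10.2, Slc51a at 10.4, Slc51b at 10.6 and Nr0b2 at 18.5. The further neighbours were Slc25a48, Osr2, Defa35, Cfd, Nts, Hoxb8, Mgat4c and Slc34a2, at distances up to 6.93. They include a mitochondrial carrier, 2 transcription factors (Osr2 and Hoxb8), a Paneth cell defensin whose close copies make its value uncertain, complement factor D and the ileal hormone neurotensin (Nts, 29.2 CPM in control 3 and at most 1.38 CPM elsewhere). The likeness rests on 1 library, control 3.

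**Figure D4:**
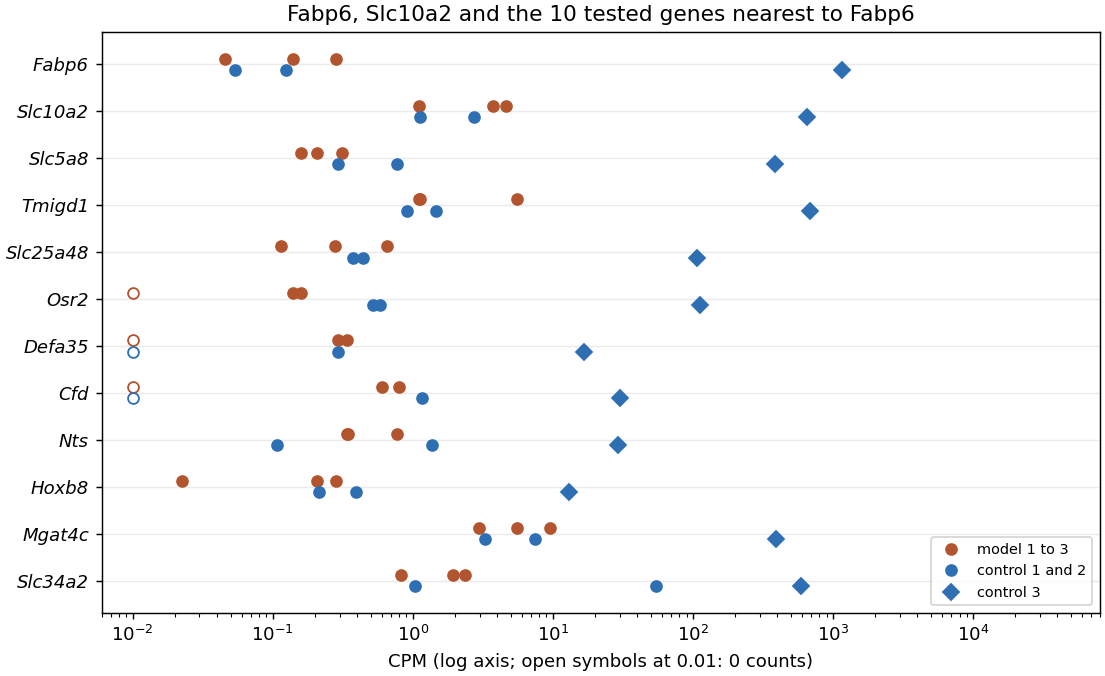
CPM (log axis) of Fabp6, Slc10a2 and the 10 tested genes nearest to Fabp6 in model 1 to 3 (orange circles), control 1 and 2 (blue circles) and control 3 (blue diamonds), with open symbols at the left for 0 counts. Control 3 is the highest library in every row, and in the Slc34a2 row control 1 (54.4 CPM) stands between control 3 and the other 4.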

How the data were processed

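Poly-A RNA was sequenced in 6 libraries. The tools FastQC, Trimmomatic, STAR and featureCounts and build GRCm39 are named, per the submitters' processing notes. Their versions and settings, strand included, are not given in the sources used, so values of genes with overlapping neighbours or close copies are uncertain. The deposited values are raw counts per gene in 1 table, and its columns were matched by library name, with 0 left unmatched. Library totals were 35007515 to 45285564 counts.

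Genes were kept by filterByExpr and scaled by TMM (factors 0.826 to 1.17). The main test was edgeR 4.0.16's robust quasi-likelihood F test (R 4.3.3), modelling group alone. A call required a Benjamini-Hochberg adjusted p under 0.05 over all tested genes. SE is the absolute log2 fold change over the square root of F. Log2 CPM used a prior count of 2. The alternatives were DESeq2 1.42.0, limma-voom 3.58.1, other scalings and filters, a replicate block and omitted libraries. No pair of libraries in a group looked like 1 library deposited again (chi-square over df, 111 to 543).

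The 8 genes and all lists were chosen with earlier results of these data known. Named are the 8, the 2 most abundant tested genes of each list (none passed) and the 10 nearest to Fabp6, and others are said to be chosen after their values were seen. Some of the list genes that this rule names (Gcg, Ada, Ighd, Ctrb1, Cela1, Ttr, Serpinc1, Myh11 and Acta2) are covered by the sums of their lists, and 1 further list is not reported here. Promoter windows came from RefSeq (GRCm38.p6), matched by symbol for 7 of the 8 genes.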

Additional observations from a re-analysis of the deposited data

How the results depend on the processing

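No alternative called any of the 6 tested genes between model and control. In 2 alternatives a call was not possible for every gene. Slc10a2 had no adjusted p by DESeq2 with all libraries, and Slc10a2 and Gpbar1 did not pass the filter of 5 CPM in 3 libraries. The number of genes called by edgeR was 0 in each scaling, filter and fit without 1 library, 0 by limma-voom, 25 by DESeq2 and 21 by DESeq2 without control 3, the last chosen after the data were seen. The replicate block also called 0 genes. Deviations from the group means correlated at -0.15, -0.27 and 0.31 for numbers 1, 2 and 3. Model 1 correlated best with control 2 (0.48), and model 3 best with control 3. Within a group of 3 the deviations sum to 0, so these values cannot decide whether the numbers pair the libraries.

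The log2 fold change turned its sign without control 3 for Slc10a2 (0.73), Slc51a (0.32), Slc51b (0.32) and Nr1h4 (0.20), in DESeq2 without control 3 (0.73, 0.32, 0.32 and 0.20), and without control 3 and model 3, chosen after the data were seen (0.56, 0.47, 0.26 and 0.21). Gpbar1 turned without control 2 (0.44), model 2 (0.05) and model 3 (0.16). Over the fits without 1 library, the log2 fold change ran from -6.68 to 0.73 for Slc10a2, -0.98 to 0.32 for Slc51a, -0.64 to 0.32 for Slc51b, -1.05 to 0.20 for Nr1h4 and -0.58 to 0.44 for Gpbar1. Nr0b2 stayed positive in all 16 alternatives (1.29 to 4.18).

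Scaling by library size alone moved the median of all genes to -0.21 between groups and to 0.27 in control 3. Under it, and also without model 1, 5 genes in place of 4 were at 2-fold above the highest other library in control 3, Slc51a being added, and at a fold of 4 the number was 2. Without control 3 the median log2 fold change moved to -0.22, from -2.68, for ileal genes and to -0.61, from -2.29, for distal gut hormones. Of the 10 genes nearest to Fabp6, 1 was also among the 10 by Pearson correlation and 4 among the 10 over all genes with at least 10 counts. Fgf15 and Gpbar1 had counts of only 0 to 24, and what kept them low was not tested.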

Other observations

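Over all genes with at least 10 counts in any library, a choice made after the data were seen, 6 of the 10 genes nearest to Fabp6 were too low elsewhere to be tested. Saa1, an acute-phase apolipoprotein, measured 210.04 CPM in control 3 and at most 0.136 CPM in the other 5 libraries. The amino acid transporter gene Slc6a14 measured 99.5 CPM in control 3 and at most 0.107 CPM elsewhere. The homeobox gene Hoxb9 measured 44.6 CPM in control 3 and at most 0.114 CPM elsewhere. The nucleotide receptor gene P2ry4 measured 23.4 CPM in control 3, the adipocyte hormone gene Adipoq 12 CPM and the defensin gene Defa32 8.41 CPM, with at most 0.136 CPM of each in the other libraries. The distal gut hormone genes Pyy, Nts and Gcg were all highest in control 3, and with Insl5 they summed to 68.7 CPM there and 3.82 to 9.89 CPM in the others.

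Other values near the pathway, chosen after they were seen, are given without a test. Baat, the enzyme that conjugates bile acids, measured 8.69 CPM in control 3 and 0.615 to 2.28 CPM in the other 5 libraries. Klb, the co-receptor of FGF15, measured 2.75 CPM in control 3 and 0.285 to 1.2 CPM in the others. The efflux pump gene Abcb1a measured 528 CPM in control 3 and 75.5 to 140 CPM in the others. Of 11 tested synthesis and conjugation genes, 6 were below the lowest other library in control 3 and 2 above the highest. Of 6 tested other transporters, 2 were below the lowest and 3 above the highest. Over all genes tested, 26.8% were below and 27.5% above.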
